A study of Mus musculus with 4 samples.

Results

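DNA repair genes were followed in LSK cells, the stem and early progenitor cells of mouse bone marrow (negative for lineage markers, positive for Sca-1 and c-Kit), of mice with a knock-down of TET2, the JAK2V617F mutation or both. The set comprised 48 genes of 7 repair and checkpoint pathways, chosen by symbol, among 22554 genes named on the array, and 65 probes of 60 bases read them. Of the 48 genes, 32 had 1 probe and 16 had more than 1. At least 1 probe was well above background on all 4 arrays for 28 genes, on 1 to 3 arrays for 18 genes, and on 0 arrays for 2 genes (Xrcc4 and Ogg1). By probe the numbers were 33, 27 and 5.

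Each genotype was represented by 1 array. TET2KD cells were taken 10 weeks after transplantation, JAK2V617F cells after 16 weeks, double mutant cells, which carry both changes, after 13 weeks, and wild-type (WT) cells after 16 weeks. All 4 groups were LSK cells from lethally irradiated recipients of E14.5 fetal liver cells of that genotype, with C57B6 as the labelled strain, and the design text gives 5 mice per genotype. TET2 oxidises 5-methylcytosine in DNA, and JAK2V617F is an activated kinase of myeloproliferative neoplasms, here a transgene whose promoter is not given in the sources used here. Whether cells were pooled, and how many host cells remained, is also not given. With 1 array a group there is no replicate check and no test. Genotype cannot be told apart from the sampled mice or, except between JAK2V617F and WT, from the weeks after transplantation.

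The genes act in linked pathways. The Fanconi anaemia core complex attaches ubiquitin to the FANCI and FANCD2 proteins at stalled replication forks, which starts the repair of crosslinked DNA, and inherited loss of this pathway leads to bone marrow failure. Double-strand breaks are repaired from the sister chromatid by homologous recombination or rejoined directly by end joining, under the control of the ATM and ATR kinases. Damaged bases, mispaired bases and bulky lesions are removed by base excision, mismatch and nucleotide excision repair.

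A relative signal below is a probe's processed intensity divided by the 75th percentile of its array, and it is set only against the same probe on the other arrays. Of the 8 LSK marker genes, 7 were above background on each array, and Slamf1 was on none. Summed relative signals of the 10 mature neutrophil markers were 95.6 in TET2KD, 22.1 in JAK2V617F, 67.4 in double mutant and 66.4 in WT cells, and Mmp9 was above background on none. S100a9 alone was 38.5 of the WT sum, so the sum follows its brightest members. Of 9 neutrophil markers compared with WT, 4 were at least 2-fold higher and 1 lower in TET2KD (16% and 17.6% of all genes). In JAK2V617F it was 0 and 6 (15.6% and 15.8%), and in double mutant cells 3 and 1 (15.4% and 16.7%). The 8 erythroid markers summed to 23.8 in TET2KD, 1.29 in JAK2V617F, 11.8 in double mutant and 1.75 in WT cells. For the 8 B and plasma cell markers the sums were 8.95 in TET2KD, 4.16 in JAK2V617F, 6.58 in double mutant and 19.4 in WT cells, with Ms4a1 and Ebf1 among those above background on none. The members of that list went both ways against WT, with 3 at least 2-fold higher and 2 lower of 5 in TET2KD, 1 and 2 of 4 in JAK2V617F, and 2 and 2 of 5 in double mutant cells. These marker sums differed between the arrays that the repair genes are compared on, and their part in the differences below was not tested. In a bulk sample, fewer cells of a type and less RNA per cell cannot be told apart. Tet2 itself was at 27.3% and 56.3% of WT in TET2KD cells and at 60.3% and 61.6% in the double mutant, on its pair of probes above background on every array. Its remaining probe was above background in the double mutant alone, at 0.293, against 0.154 in TET2KD, 0.0630 in JAK2V617F and 0.0772 in WT cells.

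**Figure D1:**
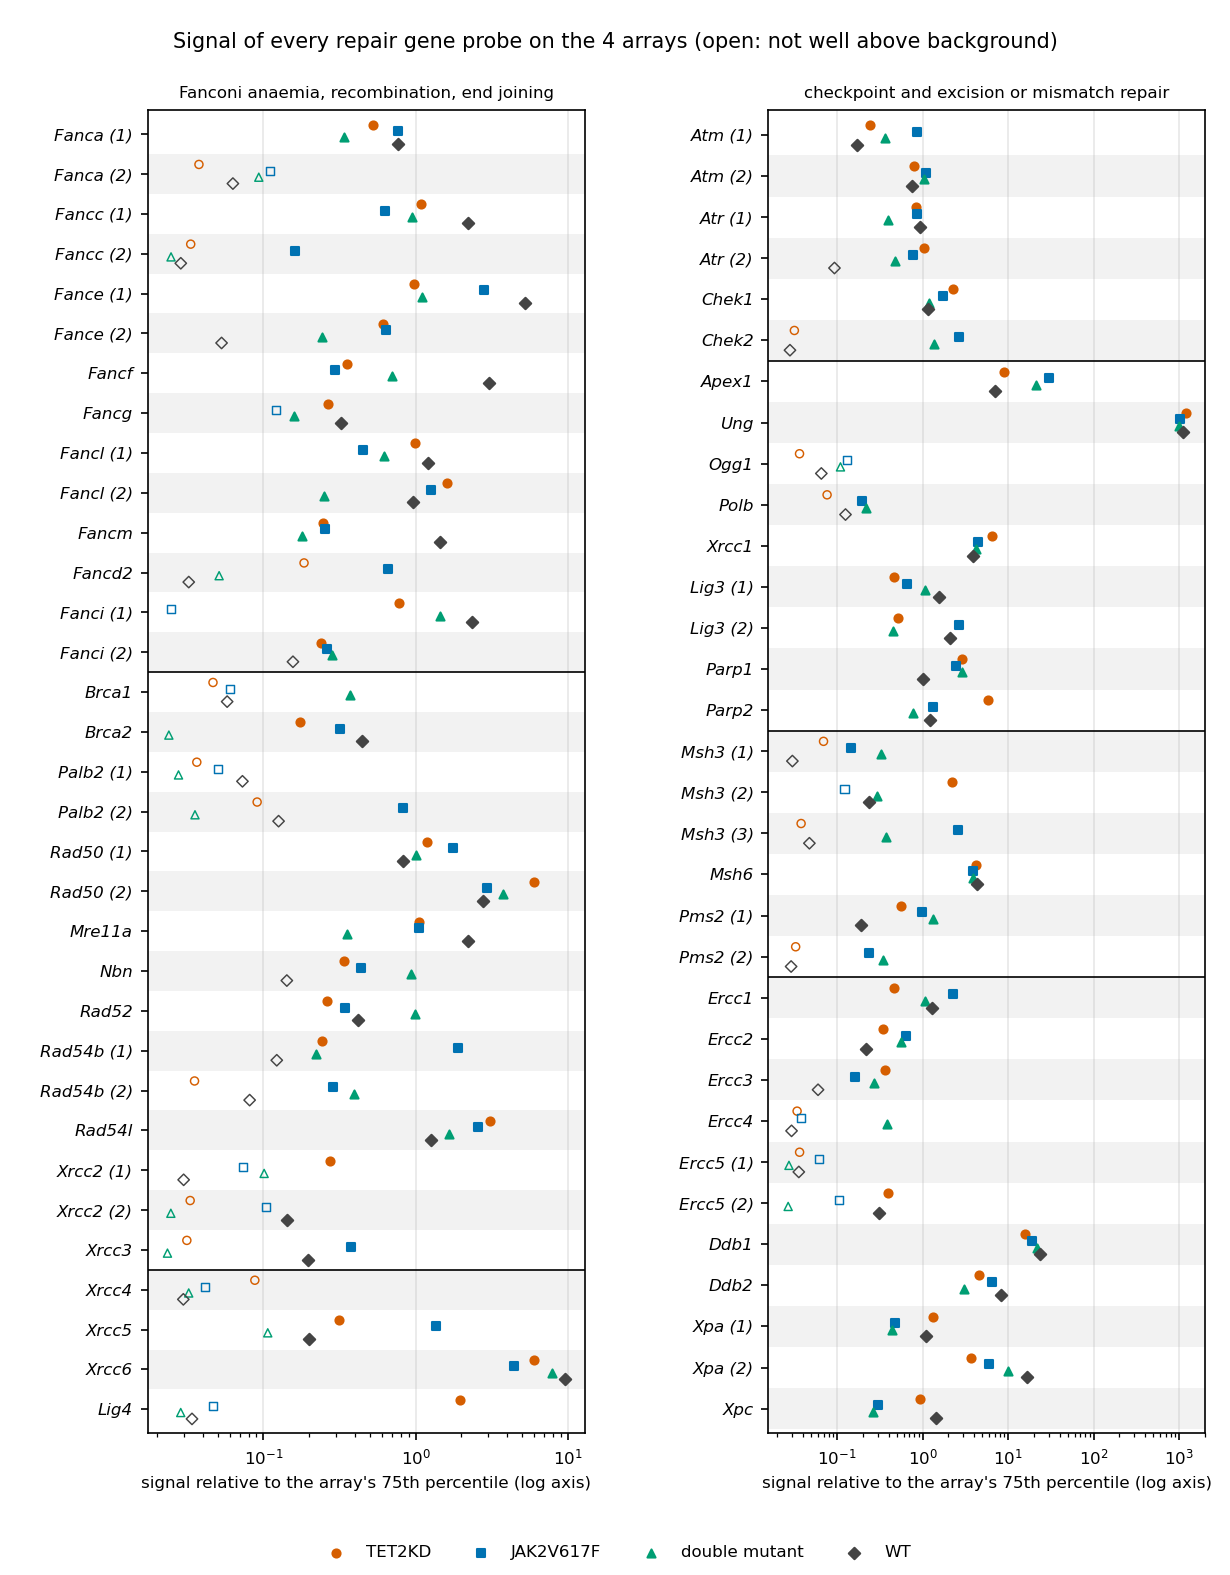
Relative signal of each of the 65 repair gene probes (horizontal log axis, signal divided by the array's 75th percentile) on the TET2KD, JAK2V617F, double mutant and WT arrays, 1 array each. Rows are probes, numbered in brackets where a gene has more than 1, black lines part the pathways, and open symbols are not well above background. For Fancf and Fancm the WT point lies to the right of all 3 mutant points (3.04 and 1.46 in WT), and for Chek2 only the JAK2V617F and double mutant points are filled.

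In TET2KD cells 10 repair genes were at least 2-fold higher and 7 at least 2-fold lower than in WT cells, of 40 that could be compared. Over all genes compared, 16% were higher and 17.6% lower by that much, so the share of higher genes, 25%, lay above the background and the share of lower genes, 17.5%, at it. The median log2 difference was 0.17, against -0.05 for all genes. JAK2V617F cells had 14 genes higher and 9 lower than WT cells of 43 compared, 32.6% and 20.9%, where 15.6% and 15.8% of all genes were, with a median of 0.20 against -0.01. Double mutant cells had 12 higher and 13 lower than WT cells of 43, 27.9% and 30.2%, against 15.4% and 16.7% of all genes, with a median of -0.12 against -0.01. The 3 comparisons share the WT array, so they are not independent of each other. With the normexp background correction the higher and lower counts were 4 and 3 in TET2KD, 5 and 5 in JAK2V617F, and 4 and 5 in double mutant cells, so most of the differences named below are under 2-fold with it.

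Many of these counts rest on dim probes. A probe not well above background on 1 of 2 arrays was set there to the higher of its own signal and that array's lowest measurable signal, which makes the probe's fold a lower bound. Such bounds made up 4 of the called genes in TET2KD, 7 in JAK2V617F and 8 in double mutant cells against WT, and for 2 more in JAK2V617F (Fanci and Msh3) the probes' bounds ran in opposite directions. A further 1 in TET2KD, 2 in JAK2V617F and 2 in double mutant cells rested in part on such a bound. Measured on both arrays were 12 of 17 called genes in TET2KD, 12 of 23 in JAK2V617F and 15 of 25 in double mutant cells. Restricted to probes above background on both arrays, the higher and lower counts were 5 and 9 of 34 in TET2KD (12.6% and 14.8% of all genes), 7 and 7 of 31 in JAK2V617F (12.2% and 13.5%), and 5 and 13 of 31 in double mutant cells (11.8% and 14.1%). Either way that is 41.2% of the repair genes compared in TET2KD (27.4% of all genes), 45.2% in JAK2V617F (25.7%) and 58.1% in double mutant cells (26%). Without that restriction the shares of all genes either way were 33.6% in TET2KD, 31.5% in JAK2V617F and 32.1% in double mutant cells. On these probes the median was -0.22 in TET2KD, -0.13 in JAK2V617F and -0.28 in double mutant cells, against -0.03, -0.06 and -0.06 for all genes. The medians in TET2KD and JAK2V617F were thus negative here and positive without the restriction. In TET2KD lower genes outnumbered higher ones here, the reverse of the counts without the restriction.

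**Figure D2:**
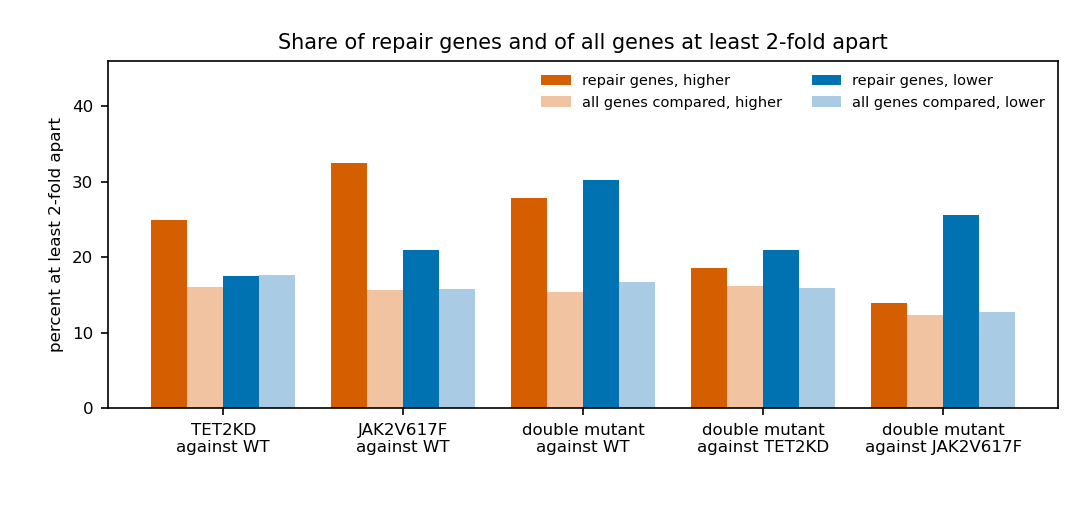
Percentage of compared repair genes (dark bars) and of all compared genes (light bars) at least 2-fold higher (orange) or lower (blue) in the first-named cells, for the 5 comparisons, with 1 array on each side. In the double mutant against WT, 27.9% of repair genes were higher and 30.2% lower, against 15.4% and 16.7% of all genes.

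In all, 37 of the 48 genes differed at least 2-fold from WT in at least 1 mutant, of 46 compared with WT at least once (80.4%, against 52.9% of all genes). Among genes compared in all 3 mutants it was 31 of 39 (79.5%, against 53.3%). Fewer differed in all of them: of 39 genes compared in all 3 mutants, Nbn, Parp1, Msh3 and Pms2 were at least 2-fold higher in each on the average of their probes, and Fancf, Fancm and Mre11a at least 2-fold lower in each. Of 13479 genes compared in all 3 mutants, 4.18% were higher and 6.74% lower in each, and these counts share the WT array. Another 9 repair genes stayed under 2-fold in every comparison with WT that could be made, between -0.85 and 0.98 on the log2 scale. They were Fance, Rad50, Xrcc3, Chek1, Ung, Polb, Xrcc1, Msh6 and Ddb1. The Ung probe ends in a repeat, as described below.

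**Figure D3:**
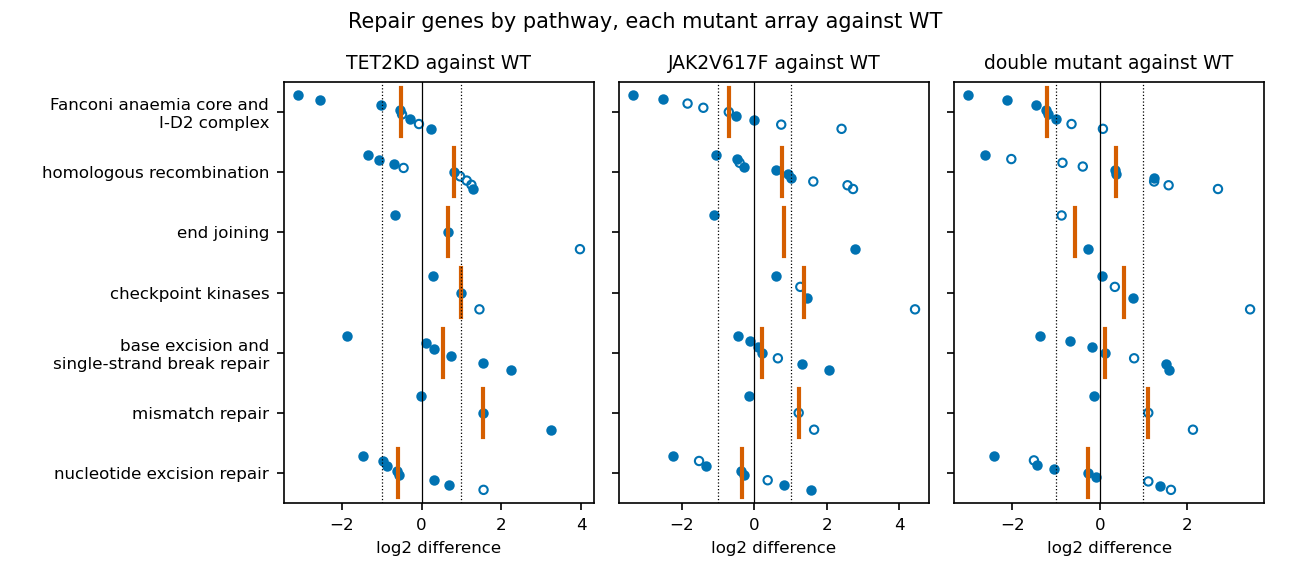
Log2 difference of each compared repair gene (1 point a gene) between a mutant array and the WT array, by pathway, with the pathway median as an orange bar, 0 as a solid line and 2-fold as dotted lines. Filled points have every compared probe above background on both arrays, and open points rest at least in part on the floor. The Fanconi anaemia row lies mostly to the left of 0, with a median of -1.21 in the double mutant, and the mismatch repair row mostly to the right, with medians of 1.55 in TET2KD, 1.22 in JAK2V617F and 1.11 in double mutant cells. The mismatch repair row holds 3 genes, so its median is the value of Pms2 in TET2KD and of Msh3 in the other mutants. In JAK2V617F the Msh3 value comes from bounds in opposite directions.

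Among the Fanconi anaemia genes, more were at least 2-fold lower than higher in each mutant against WT. In TET2KD cells 0 were higher and 3 lower of 8 compared, where 16% and 17.6% of all genes were, with a median log2 difference of -0.52. JAK2V617F cells had 1 higher and 4 lower of 9, where 15.6% and 15.8% of all genes were, with a median of -0.71. Fanci is among the lower genes there only on an average of bounds in opposite directions. The JAK2V617F median is the value of Fancc, whose probes disagree in sign. Double mutant cells had 0 higher and 6 lower of 8, where 15.4% and 16.7% of all genes were, with a median of -1.21. The medians over all genes stood between -0.05 and -0.01.

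Fancf, an adaptor subunit that holds the core complex together, had relative signals of 0.354 in TET2KD, 0.297 in JAK2V617F, 0.702 in double mutant and 3.04 in WT cells. All 3 mutants lay below WT, TET2KD by 8.56-fold, JAK2V617F by 10.2-fold and the double mutant by 4.33-fold. Fancm, the DNA translocase that anchors the core complex on chromatin, was at 0.248 in TET2KD, 0.255 in JAK2V617F, 0.180 in double mutant and 1.46 in WT cells. It was 5.87-fold lower in TET2KD, 5.72-fold lower in JAK2V617F and 8.08-fold lower in double mutant cells, and the 3 mutants lay close together. Both genes were above background on all 4 arrays, and both stayed at least 2-fold lower in each mutant with the normexp background correction.

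The sequences before the starts of these genes are shown because both were low in every mutant array. They are the 250 bases before each RefSeq start in GRCm38.p6, with each CCAAT in capitals. Fancf lies on the minus strand (chr7:51862268-51862517) and Fancm on the plus strand (chr12:65075353-65075602).
Fancf: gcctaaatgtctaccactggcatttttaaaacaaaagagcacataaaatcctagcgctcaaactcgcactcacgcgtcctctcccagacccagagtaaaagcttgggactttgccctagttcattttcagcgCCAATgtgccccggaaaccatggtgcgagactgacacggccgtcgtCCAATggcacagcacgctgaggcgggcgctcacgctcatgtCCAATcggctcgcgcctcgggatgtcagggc
Fancm: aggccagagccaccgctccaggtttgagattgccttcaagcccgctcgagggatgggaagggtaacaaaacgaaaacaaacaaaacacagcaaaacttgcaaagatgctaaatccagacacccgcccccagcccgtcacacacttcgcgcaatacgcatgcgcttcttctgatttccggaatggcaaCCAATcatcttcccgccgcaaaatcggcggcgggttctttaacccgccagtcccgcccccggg
CCAAT begins at -118, -72 and -31 before Fancf and at -63 before Fancm, a description of letters and not of a factor's binding. Promoters in the RefSeq table, 250 bases before to 50 after the start, matched 39 of the 48 genes, with 41 promoters. CCAAT, read on both strands, was in 24 of the 41 (58.5%) and in 37.4% of all 32851 promoters. The E2F-type letters TTTCGCGC or TTTGGCGC were in 1 (2.44%, against 0.813%), and the NRF1-type motif in 1 (2.44%, against 0.971%). The CHR-type letters TTTGAA were in 1 (2.44%, against 17.9%). A promoter with several motifs counts for each. The median GC content was 59.7% in the repair gene promoters against 52.7% in all.

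Other core subunits differed less. Fanca had 0.525 in TET2KD, 0.764 in JAK2V617F, 0.336 in double mutant and 0.768 in WT cells, and only the double mutant was 2-fold below WT (2.29-fold), while its other probe was not above background. Fancg had 0.264 in TET2KD, 0.121 (not above background) in JAK2V617F, 0.160 in double mutant and 0.321 in WT cells, so that it was at least 2.66-fold lower in JAK2V617F and 2.01-fold lower in double mutant cells. Fancc was at 1.09 in TET2KD, 0.633 in JAK2V617F, 0.943 in double mutant and 2.21 in WT cells on the probe measured on every array. WT was highest there, while the other probe was above background only in JAK2V617F cells. Fancc was 2.03-fold lower in TET2KD and 2.35-fold lower in double mutant cells over its compared probes.

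Fancl, the ubiquitin ligase of the complex, had 0.992 in TET2KD, 0.451 in JAK2V617F, 0.619 in double mutant and 1.21 in WT cells on 1 probe. On the other it had 1.61 in TET2KD, 1.27 in JAK2V617F, 0.248 in double mutant and 0.956 in WT cells. The probes gave opposite signs in both single mutants, and both were lower in the double mutant than in WT (2.74-fold on average). Fance, another core subunit, had 0.975 in TET2KD, 2.83 in JAK2V617F, 1.10 in double mutant and 5.25 in WT cells on 1 probe, where WT was highest. Its other probe read 0.612 in TET2KD, 0.642 in JAK2V617F and 0.243 in double mutant cells and was not above background in WT cells (0.0531). The probes went opposite ways in all 3 mutants, and their average stayed under 2-fold from WT.

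Fancd2 was above background only in JAK2V617F cells, at 0.657, against 0.185 in TET2KD, 0.0511 in double mutant and 0.0323 in WT cells, none of them well above background. It was at least 5.29-fold higher in JAK2V617F than in WT cells. Fanci, its partner, had 0.774 in TET2KD, 0.0247 (not above background) in JAK2V617F, 1.44 in double mutant and 2.34 in WT cells on 1 probe. There it was lowest in JAK2V617F, where Fancd2 was highest. On the other Fanci probe the values were 0.240 in TET2KD, 0.263 in JAK2V617F, 0.281 in double mutant and 0.156 (not above background) in WT cells. The probes disagreed in direction in every mutant. In JAK2V617F they are bounds in opposite directions, so their average, 3.6-fold lower than in WT, is neither a measured fold nor a bound.

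Of the homologous recombination genes, 3 were higher and 2 lower of 9 in TET2KD (16% and 17.6% of all genes), 4 and 1 of 10 in JAK2V617F (15.6% and 15.8%), and 4 and 2 of 10 in double mutant cells (15.4% and 16.7%) against WT. Most of the higher ones were lower bounds from dim WT signals. Medians were 0.81 in TET2KD, 0.76 in JAK2V617F and 0.37 in double mutant cells on the log2 scale. The Mre11-Rad50-Nbs1 complex, which senses and trims broken ends, did not move as a unit. Mre11a, its nuclease, had 1.06 in TET2KD, 1.06 in JAK2V617F, 0.354 in double mutant and 2.20 in WT cells, lowest in the double mutant. It was 2.08-fold below WT in each single mutant and 6.22-fold below WT in the double mutant. Nbn, which recruits ATM, had 0.339 in TET2KD, 0.439 in JAK2V617F, 0.931 in double mutant and 0.142 in WT cells, the last not above background. It was thus at least 2.38-fold higher in TET2KD, 3.08-fold in JAK2V617F and 6.53-fold in double mutant cells, the highest array. Rad50 was above background on all arrays on both probes, between 0.35 and 0.81 on the log2 scale above WT.

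Rad52, which anneals single strands, is read by 10 spots per array, which gives a technical error. Its mean relative signal over spots was 0.264 ± 0.0414 in TET2KD (SD, 9 spots used), 0.348 ± 0.0427 in JAK2V617F (9 spots), 0.997 ± 0.118 in double mutant (10 spots) and 0.424 ± 0.0580 in WT cells (10 spots). The lowest double mutant spot, 0.794, lay above the highest spot of every other array, 0.518 in WT. Rad52 was 2.36-fold higher in double mutant than in WT cells. Spots of 1 array share the RNA, so this spread covers the slide and not the animals.

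Rad54l and Rad54b, DNA translocases that act in strand exchange, were higher in JAK2V617F than in WT cells. Rad54l had 3.1 in TET2KD, 2.57 in JAK2V617F, 1.66 in double mutant and 1.27 in WT cells, 2.44-fold higher in TET2KD and 2.03-fold higher in JAK2V617F than in WT. WT was the lowest of the 4. Rad54b read 0.242 in TET2KD, 1.90 in JAK2V617F, 0.221 in double mutant and 0.122 (not above background) in WT cells on a probe that bridges an exon junction. On its other probe only JAK2V617F (0.286) and the double mutant (0.392) were above background, against 0.0352 in TET2KD and 0.0812 in WT cells. Rad54b was at least 5.93-fold higher in JAK2V617F and at least 2.37-fold higher in double mutant cells.

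Brca2, a central mediator of strand exchange, had 0.175 in TET2KD, 0.321 in JAK2V617F, 0.0239 (not above background) in double mutant and 0.445 in WT cells. It was 2.54-fold lower in TET2KD and at least 4.07-fold lower in double mutant cells. Its partners were each measurable on 1 array only. Brca1 was above background in double mutant cells alone, at 0.370, against 0.0466 in TET2KD, 0.0603 in JAK2V617F and 0.0577 in WT cells, at least 2.98-fold above WT. Palb2, which joins BRCA1 to BRCA2, was above background in JAK2V617F cells alone, at 0.829, against 0.0909 in TET2KD, 0.0355 in double mutant and 0.126 in WT cells, at least 6.59-fold above WT. A further Palb2 probe was above background on none. Xrcc2, a further recombination factor, was at least 2.19-fold higher in TET2KD cells on the probe that was above background there alone (0.272, against 0.0734 in JAK2V617F, 0.101 in double mutant and 0.0299 in WT cells). Its other probe ran the other way, above background in WT cells alone (0.143, against 0.0330 in TET2KD, 0.104 in JAK2V617F and 0.0246 in double mutant cells).

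Among the end joining genes the Ku subunits differed from each other. Xrcc5 had 0.315 in TET2KD, 1.36 in JAK2V617F, 0.107 (not above background) in double mutant and 0.200 in WT cells, 6.80-fold higher in JAK2V617F than in WT. The JAK2V617F array stood alone, and the double mutant was the lowest. Xrcc6, the other Ku subunit, had 6.02 in TET2KD, 4.44 in JAK2V617F, 7.90 in double mutant and 9.57 in WT cells, 2.15-fold lower in JAK2V617F, so the array with the highest Xrcc5 had the lowest Xrcc6. Lig4, the ligase of this pathway, was above background in TET2KD cells alone, at 1.95, against 0.0468 in JAK2V617F, 0.0286 in double mutant and 0.0339 in WT cells, at least 15.7-fold above WT. Xrcc4, the partner of Lig4, was above background on none.

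All checkpoint kinases compared were above 0 against WT on the average of their probes, with 1 of 3 at least 2-fold higher in TET2KD (16% of all genes), 3 of 4 in JAK2V617F (15.6%) and 1 of 4 in double mutant cells (15.4%). The TET2KD gene and 1 of those in JAK2V617F is Atr, whose average rests on a dim WT probe and whose other probe was below WT, as described below. Chek2, an effector kinase downstream of ATM, had 0.0316 (not above background) in TET2KD, 2.68 in JAK2V617F, 1.35 in double mutant and 0.0281 (not above background) in WT cells. It was thus measurable only on the arrays that carry JAK2V617F, at least 21.6-fold above WT in JAK2V617F and at least 10.9-fold in double mutant cells. Chek1, the effector of ATR, had 2.29 in TET2KD, 1.74 in JAK2V617F, 1.20 in double mutant and 1.16 in WT cells, under 2-fold throughout.

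Atm has a probe with 10 spots, whose mean was 0.250 ± 0.0517 in TET2KD (SD, 10 spots), 0.880 ± 0.140 in JAK2V617F (10 spots), 0.361 ± 0.0243 in double mutant (9 spots) and 0.175 ± 0.0324 in WT cells (9 spots). The lowest JAK2V617F spot, 0.748, lay above every spot of the other arrays, of which the highest was 0.397 in double mutant cells. On the other Atm probe the values were 0.796 in TET2KD, 1.10 in JAK2V617F, 1.03 in double mutant and 0.752 in WT cells, the same order with smaller gaps. Atm was 2.72-fold higher in JAK2V617F than in WT cells over both. Atr is uncertain: 1 probe had 0.838 in TET2KD, 0.857 in JAK2V617F, 0.396 in double mutant and 0.934 in WT cells, and the other 1.03 in TET2KD, 0.782 in JAK2V617F, 0.473 in double mutant and 0.0930 (not above background) in WT cells. The average, 2.73-fold higher in TET2KD and 2.40-fold higher in JAK2V617F, rests on the dim WT value of the second probe, and on the first probe alone the log2 difference was -0.16 in TET2KD and -0.13 in JAK2V617F cells.

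The probes of Chek2, Rad54b, Xrcc5, Parp1 and Parp2 are printed because each of these genes stands apart in named arrays. The printed sequence is the only probe of each but Rad54b, whose other probe had the larger fold in the double mutant (3.16-fold, against 1.78-fold on the printed probe). Positions are mm9, per the file headers, all on the plus strand. The Chek2 probe lies at chr5:111294547-111294606. The others cover more of the genome than their 60 bases and so bridge exons: Rad54b at chr4:11490589-11496991, Xrcc5 at chr1:72430014-72430320, Parp1 at chr1:182530341-182530639 and Parp2 at chr14:51439134-51439365.
Chek2: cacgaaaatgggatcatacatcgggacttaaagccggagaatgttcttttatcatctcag
Rad54b: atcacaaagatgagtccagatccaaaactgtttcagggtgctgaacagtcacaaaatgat
Xrcc5: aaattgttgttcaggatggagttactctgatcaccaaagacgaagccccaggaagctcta
Parp1: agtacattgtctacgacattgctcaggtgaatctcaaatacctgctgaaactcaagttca
Parp2: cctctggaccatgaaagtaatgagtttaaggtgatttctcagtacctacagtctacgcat
These sequences came from the deposited array files and hold no capitals.

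Base excision and single-strand break repair genes had 2 higher and 1 lower of 6 in TET2KD (16% and 17.6% of all genes), 2 and 0 of 7 in JAK2V617F (15.6% and 15.8%), and 2 and 1 of 7 in double mutant cells (15.4% and 16.7%). Apex1, the main endonuclease at sites that lack a base, had 8.91 in TET2KD, 29.8 in JAK2V617F, 21.3 in double mutant and 7.12 in WT cells. Both arrays with JAK2V617F lay well above both without, JAK2V617F 4.19-fold and the double mutant 3.0-fold above WT. With the normexp correction the log2 difference was 2.03 in JAK2V617F and 1.58 in double mutant cells, against 2.07 and 1.58 without it. Parp1, the break sensor whose sequence is given above, had 2.91 in TET2KD, 2.48 in JAK2V617F, 2.85 in double mutant and 1.0 in WT cells. It was 2.91-fold higher in TET2KD, 2.47-fold in JAK2V617F and 2.85-fold in double mutant cells, with the 3 mutants close together. Parp2, which shares substrates with Parp1, had 5.79 in TET2KD, 1.32 in JAK2V617F, 0.769 in double mutant and 1.23 in WT cells, 4.69-fold higher in TET2KD alone.

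Lig3, the ligase that seals these breaks with XRCC1, had 0.463 in TET2KD, 0.655 in JAK2V617F, 1.07 in double mutant and 1.54 in WT cells on 1 probe. On the other it had 0.518 in TET2KD, 2.66 in JAK2V617F, 0.452 in double mutant and 2.10 in WT cells. Both probes were lower in TET2KD (3.67-fold on average) and in double mutant cells (2.59-fold), and they disagreed in JAK2V617F. Ung, which removes uracil from DNA, read 1190.2 in TET2KD, 1020.4 in JAK2V617F, 986.7 in double mutant and 1108.4 in WT cells, within 0.17 of WT on the log2 scale. The only Ung probe ends in a long gt repeat. Whether its signal comes from Ung RNA alone was not tested, so its small differences may not describe Ung. Xrcc1 had 6.44 in TET2KD, 4.47 in JAK2V617F, 4.21 in double mutant and 3.88 in WT cells, under 2-fold. Polb was above background only in JAK2V617F (0.196) and double mutant cells (0.216), against 0.0763 in TET2KD and 0.125 in WT cells. Ogg1 was above background on none.

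Of the 3 mismatch repair genes, Pms2 and, on the average of its compared probes, Msh3 were at least 2-fold higher in every mutant, and Msh6 was under 2-fold throughout. Pms2, a nuclease subunit, had 0.556 in TET2KD, 0.986 in JAK2V617F, 1.32 in double mutant and 0.190 in WT cells on 1 probe. On the other it was above background in JAK2V617F (0.234) and double mutant cells (0.343) only, against 0.0327 in TET2KD and 0.0289 in WT cells. WT was lowest on the first probe, and Pms2 was 2.93-fold higher in TET2KD and, resting in part on the floor, 3.13-fold higher in JAK2V617F and 4.39-fold higher in double mutant cells. Msh6, which binds base mispairs, had 4.25 in TET2KD, 3.84 in JAK2V617F, 3.93 in double mutant and 4.28 in WT cells, a difference from WT of at most 0.16 on the log2 scale.

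Msh3, which binds larger loops, has 3 probes that did not follow each other. The probe at transcript position 2571 had 2.23 in TET2KD, 0.122 (not above background) in JAK2V617F, 0.295 in double mutant and 0.235 in WT cells, high in TET2KD. The probe at position 3846 had 0.0379 (not above background) in TET2KD, 2.60 in JAK2V617F, 0.378 in double mutant and 0.0474 (not above background) in WT cells, high in JAK2V617F. The probe at position 983 had 0.145 in JAK2V617F and 0.329 in double mutant cells, and was not above background in TET2KD (0.0693) and WT cells (0.0300). In TET2KD only the probe at position 2571 could be compared, 9.49-fold higher than in WT. The average of the 3 probes was 2.16-fold higher in double mutant cells. In JAK2V617F it was 2.33-fold higher, from bounds in opposite directions that give neither a measured fold nor a bound, and the log2 difference was -0.95 on the brightest probe.

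Nucleotide excision repair genes went both ways, with 1 higher and 1 lower of 8 in TET2KD (16% and 17.6% of all genes), 1 and 3 of 8 in JAK2V617F (15.6% and 15.8%), and 3 and 4 of 9 in double mutant cells (15.4% and 16.7%) against WT. In TET2KD that lies near the background. Medians were -0.59 in TET2KD, -0.33 in JAK2V617F and -0.27 in double mutant cells on the log2 scale. Xpc, which finds distorted DNA, had 0.934 in TET2KD, 0.301 in JAK2V617F, 0.266 in double mutant and 1.43 in WT cells. It was 4.75-fold lower in JAK2V617F and 5.37-fold lower in double mutant cells, and both arrays with JAK2V617F lay below both without. Ddb2, the damage-binding partner of Ddb1, had 4.54 in TET2KD, 6.49 in JAK2V617F, 3.09 in double mutant and 8.32 in WT cells, 2.70-fold lower in the double mutant. Ddb1 had 15.9 in TET2KD, 19.0 in JAK2V617F, 22 in double mutant and 23.4 in WT cells, under 2-fold.

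Xpa, which verifies the lesion, had 1.31 in TET2KD, 0.477 in JAK2V617F, 0.434 in double mutant and 1.09 in WT cells on 1 probe. On the other it had 3.68 in TET2KD, 5.97 in JAK2V617F, 10.0 in double mutant and 16.8 in WT cells. Both probes were below WT in JAK2V617F (2.53-fold on average) and double mutant cells (2.05-fold), and they disagreed in TET2KD. Ercc5, the nuclease that cuts on the 3′ side, was above background in TET2KD (0.389) and WT cells (0.311) and not in JAK2V617F (0.105) or double mutant cells (0.0267), on 1 of 2 probes. It was at least 2.89-fold lower than WT in JAK2V617F and at least 2.84-fold lower in double mutant cells, and the other probe was above background on none.

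Ercc1 and Ercc4 form the nuclease on the 5′ side. Ercc1 had 0.466 in TET2KD, 2.26 in JAK2V617F, 1.06 in double mutant and 1.28 in WT cells, 2.74-fold lower in TET2KD. Ercc4 was above background in double mutant cells alone, at 0.384, against 0.0340 in TET2KD, 0.0381 in JAK2V617F and 0.0293 in WT cells, at least 3.1-fold above WT. The helicases of TFIIH were both higher where they passed 2-fold. Ercc2 had 0.348 in TET2KD, 0.641 in JAK2V617F, 0.561 in double mutant and 0.217 in WT cells, 2.95-fold higher in JAK2V617F and 2.59-fold higher in double mutant cells. Ercc3 had 0.364 in TET2KD, 0.160 in JAK2V617F, 0.268 in double mutant and 0.0598 (not above background) in WT cells, at least 2.94-fold higher in TET2KD and at least 2.16-fold in double mutant cells.

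Against the single mutants, double mutant cells had 8 repair genes at least 2-fold higher and 9 lower than TET2KD cells, of 43 compared, where 16.2% and 15.9% of all genes were. The shares, 18.6% and 20.9%, lay close to that background. Against JAK2V617F cells 6 were higher and 11 lower of 43, 13.95% and 25.6%, where 12.3% and 12.7% of all genes were. On probes above background on both arrays the counts were 5 higher and 6 lower of 34 against TET2KD, where 13% of all genes were on each side, and 3 higher and 6 lower of 35 against JAK2V617F, where 9.61% and 10.2% were. Either way that is 32.4% against 26% of all genes, and 25.7% against 19.9%. Homologous recombination genes made up 3 of the 6 higher and 5 of the 11 lower genes against JAK2V617F.

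Of 40 genes compared with both single mutants, 4 were at least 2-fold higher and 2 at least 2-fold lower in the double mutant than in either. Brca1, Nbn, Rad52 and Ercc4 were the higher ones, and Mre11a and Xrcc5 lower. Brca1 and Ercc4 were above background on the double mutant array alone, so the filter fixed their direction. Xrcc5 was not above background on that array, so its folds are lower bounds. Over 13712 genes 6.47% were higher and 4.65% lower than both. Nbn was 2.75-fold higher than in TET2KD and 2.12-fold higher than in JAK2V617F cells, and Rad52 was 3.79-fold higher than in TET2KD and 2.86-fold higher than in JAK2V617F cells. Mre11a was 3.0-fold lower than in TET2KD and 2.99-fold lower than in JAK2V617F cells. Some genes, picked for a high value in 1 single mutant, were not high in the double mutant, while Chek2 and Apex1 were. Lig4 was at least 17.8-fold and Parp2 7.54-fold lower than in TET2KD cells, and Palb2 at least 7.58-fold, Fancd2 at least 6.0-fold and Xrcc5 at least 12.4-fold lower than in JAK2V617F cells. Lig4, Palb2 and Fancd2 were above background on that 1 array alone, so the choice itself fixed their direction. The share of all genes picked in this way was not counted, and these folds describe single genes only.

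The 4 arrays can also be set as the pair with JAK2V617F against the pair without. Values of 46 genes could be ordered with 1 common floor, and both JAK2V617F-carrying arrays were above both others for 8 genes (17.4%) and below for 9 (19.6%). Over all 16082 genes, 16.6% were above and 15.7% below, so these counts lay close to the background. The higher genes were Nbn, Rad54b, Atm, Chek2, Apex1, Polb, Pms2 and Ercc2, and the lower ones Fancc, Fancg, Fancl, Mre11a, Ung, Msh6, Ercc5, Xpa and Xpc. Some of the lower genes were parted by very little on the log2 scale. The gap was -0.0045 for Mre11a, -0.074 for Xpa, -0.105 for Fancc, -0.111 for Msh6 and -0.119 for Ung. A gap of at least 2-fold parted the pairs for Chek2 (3.22 on the log2 scale), Apex1 (1.26), Ercc5 (-1.10) and Xpc (-1.64), and over all genes 2.07% and 1.79% had such a gap upward and downward. Chek2 and Polb were above background only on the arrays with JAK2V617F, and Ercc5 only on those without. The filter thus fixed the order of these genes. The S phase genes, a list of 26 replication genes of which 25 were ordered, had 12 above and 2 below. Their part in the repair gene differences was not tested.

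With the knock-down, TET2KD and double mutant cells were both above the other arrays for 2 genes (4.35%) and both below for 8 (17.4%), against 12.8% and 14.4% of all genes. Parp1 and Ercc3 were the higher ones, and Fanca, Fance, Fancm, Brca2, Xrcc3, Lig3, Ercc1 and Ddb2 the lower ones. For 0 of these was the gap 2-fold, against 1.08% and 1.22% of all genes. The gap for Fancm was only -0.038 on the log2 scale. Xrcc3 was above background only on the arrays without the knock-down, so the filter fixed its order. The arrays of a pair differ in genotype and weeks and are no replicates, and with 2 against 2 the smallest two-sided exact p would be 0.333.

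**Figure D4:**
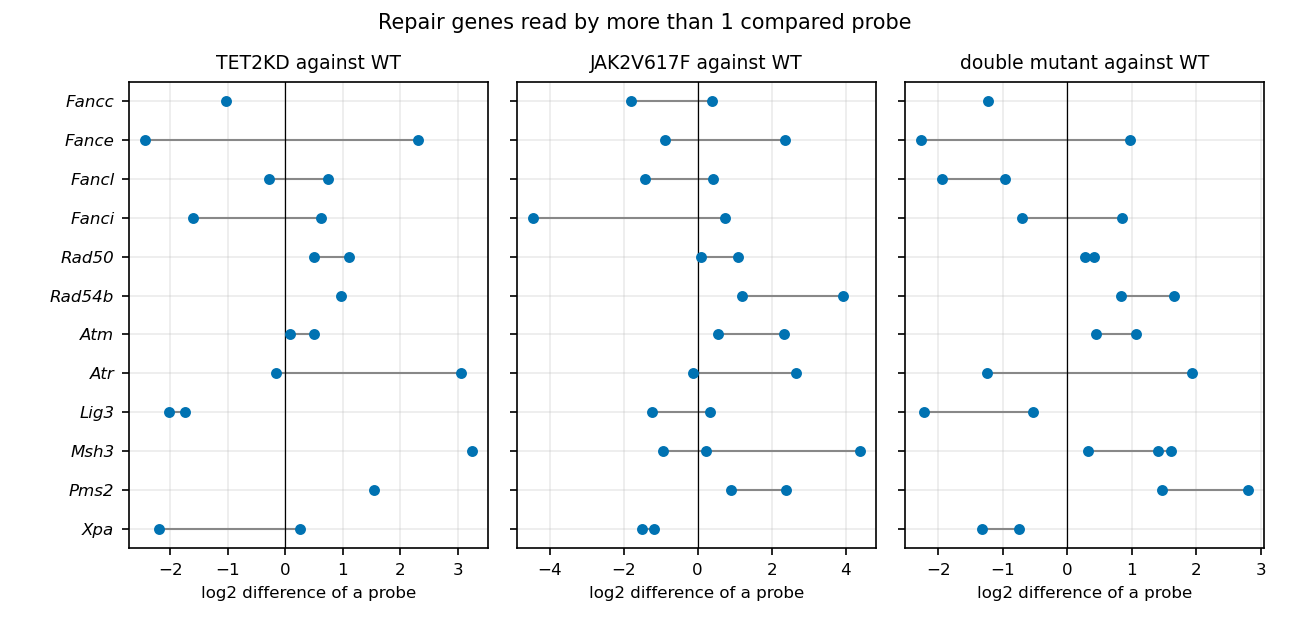
Log2 difference from WT of each compared probe (points) of the repair genes with more than 1 compared probe in at least 1 comparison, for the 3 mutants with 1 array each, joined by a line where a gene has more than 1. Fance, Fanci and Atr cross 0 in more than 1 panel, while both Lig3 probes are lower in TET2KD and in the double mutant.

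Probes of the same gene give the other measure of error. Against WT, 3 of 8 probe pairs of repair genes had the same sign in TET2KD, 6 of 14 in JAK2V617F and 10 of 13 in double mutant cells. Over all genes with several compared probes the shares were 55.7% in TET2KD, 57.6% in JAK2V617F and 58.1% in double mutant cells. Agreement on direction was thus low for genes in general, and a gene read by a single probe has no such check. Repeated spots of 1 probe had a median SD of 0.104 to 0.114 on the log2 scale per array, over probes with several spots well above background. The repeated repair probes mostly varied more, with an SD of 0.171 to 0.239 for Rad52 and 0.0971 to 0.323 for Atm. An SD of spots and a share of signs are different measures.

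A wider list of 85 other repair genes, which holds further members of the same pathways, was counted the same way. In TET2KD cells 13 were higher and 19 lower of 72 compared (18.1% and 26.4%, against 16% and 17.6% of all genes), with a median of -0.09 on the log2 scale. JAK2V617F cells had 24 and 10 of 78 (30.8% and 12.8%, against 15.6% and 15.8%), with a median of 0.18. Double mutant cells had 18 and 19 of 78 (23.1% and 24.4%, against 15.4% and 16.7%), with a median of -0.02. Slx4, a scaffold for structure-specific nucleases, had 0.405 in TET2KD, 4.43 in JAK2V617F, 0.459 in double mutant and 2.33 in WT cells, 5.76-fold lower in TET2KD and 5.09-fold lower in double mutant than in WT cells. Nhej1, an end joining factor, had 0.127 (not above background) in TET2KD, 0.298 in JAK2V617F, 0.434 in double mutant and 3.4 in WT cells. It was at least 23.5-fold lower in TET2KD, 11.4-fold lower in JAK2V617F and 7.83-fold lower in double mutant cells. WT was the highest array for Nhej1.

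Parg, which removes poly(ADP-ribose) made by the PARP enzymes, had 2.38 in TET2KD, 3.60 in JAK2V617F, 4.14 in double mutant and 0.677 in WT cells, 3.52-fold higher in TET2KD and 6.12-fold higher in double mutant cells. Like Parp1, it was lowest in WT. Mgmt, which removes alkyl groups from guanine, had 1.48 in TET2KD, 0.445 in JAK2V617F, 0.236 in double mutant and 1.56 in WT cells, 3.50-fold lower in JAK2V617F and 6.59-fold lower in double mutant cells. Faap100, a Fanconi core subunit outside the 48 genes, was 5.74-fold higher in JAK2V617F and 4.04-fold higher in double mutant cells, opposite in sign to most core subunits listed above. Fancb and Faap24, picked here because they too are Fanconi genes, were not above background in WT cells. Fancb was at least 2.38-fold higher in JAK2V617F and 1.52-fold in double mutant cells, and Faap24 at least 1.65-fold and 3.68-fold. Fan1, Slx4 and Brip1 were lower than WT in double mutant cells, so Fanconi genes outside the 48 went both ways there. Others that met the rule for this list included Rad17 (3.01-fold higher), Rnf8 (3.9-fold lower) and Brip1 (3.83-fold lower) in TET2KD cells. In JAK2V617F cells they were Gtf2h3 (8.43-fold higher), Mus81 (7.23-fold higher) and Prkdc (4.26-fold lower), and in double mutant cells Ercc8 (3.11-fold higher).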

How the data were processed

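Gene expression of LSK cells was measured on 4 one-colour Agilent arrays, 1 per genotype, all on 1 slide. Per the labels' protocols, cells were sorted on a FACSAriaII, RNA came from a Trizol extraction, amplification used the NuGEN Ovation Pico system, and the product was labelled with Cy3. The authors' deposited intensity values came from Feature Extraction 10.7.3.1, per the file headers, with background subtracted; probe coordinates are mm9. The deposited series matrix holds log2 values: each column was the log2 processed signal shifted by 1 constant, with 0 of 55249 single-spot probes off by more than 0.001, and so with no centring of genes. Column medians were -2.63 (TET2KD), -2.60 (JAK2V617F), -2.60 (double mutant) and -2.64 (WT).

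From the intensities, values were taken to log2 relative to the 75th percentile of the 59305 spots per array that are not controls. The 162 to 199 outlier spots per array were dropped, spots were averaged per probe and compared probes per gene. Of 55681 probes, 29809 were named by symbol, 1768 by a synonym and 161 by accession through a RefSeq table (GRCm38.p6, names only). Between 49.4% and 54.7% of spots were well above background, and none was saturated. A probe was compared if well above background on at least 1 of 2 arrays. The dim side was set to the higher of its own signal and the array's floor, the lowest signal among single-spot probes well above background (0.145, 0.108, 0.109 and 0.124 for TET2KD, JAK2V617F, double mutant and WT). Probes whose fold would then fall below 1 were left out. For orders over 4 arrays the highest floor was used throughout.

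With 1 array per group, a gene was counted at a 2-fold difference and no test was made; the number of arrays limits the precision. Members, gene lists and markers were chosen with earlier results of these data known. Described individually were members at least 2-fold from WT in any mutant, up to 3 others a pathway, and up to 3 other repair genes each way per mutant with every compared probe above background on both arrays. The steps were tested on simulated data. Alternatives were normexp correction (offset 50, limma 3.58.1 in R 4.3.3), quantile scaling, scaling to the detected probes' median, the series matrix, a stricter and no dim-probe filter, 1 probe per gene (the brightest) and a threshold of 3-fold. Python 3.11.15 was used for the rest. Some items are not reported here.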

Additional observations from a re-analysis of the deposited data

Results flagged for a closer look

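For 3 repair genes, values moved at least 2-fold in opposite directions for 1 change, depending on whether the other was present. With 1 array per group these differences were not tested. The TET2KD difference of Fancf was 1.24 on the log2 scale on the JAK2V617F background and -3.10 on WT, which are 4.34 apart. The JAK2V617F difference of Xrcc5 was -1.12 on the TET2KD background and 2.76 on WT (-3.89 apart), and that of Atr -1.10 and 1.15 (-2.26 apart). These values use 1 common floor for all arrays, and the Atr value on WT rests on the probe that was not above background in WT.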

How the results depend on the processing

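The 99 differences of at least 2-fold, over 5 comparisons, kept their direction with normexp, quantile scaling, median scaling, the series matrix and no filter on dim probes, and 34, 99, 99, 98 and 91 stayed at least 2-fold. With normexp, which compresses low signals, higher and lower counts were 4 and 3 (TET2KD against WT), 5 and 5 (JAK2V617F against WT), 4 and 5 (double mutant against WT), 2 and 3 (double mutant against TET2KD), and 0 and 3 (double mutant against JAK2V617F). All genes then had 5.68% and 7.72%, 6.12% and 6.27%, 5.59% and 6.82%, 6.49% and 5.95%, and 3.24% and 4.22%. At 3-fold the counts were 3 and 3, 8 and 4, 4 and 5, 2 and 5, and 3 and 4. The shares of all genes were not counted at 3-fold, so whether these lie above the background is not known. With only probes above background on both arrays the higher counts were 5, 7, 5, 5 and 3, the lower count against JAK2V617F was 6, and medians against WT were -0.22, -0.13 and -0.28. Genes higher on both JAK2V617F-carrying arrays then numbered 4, and on both TET2KD-carrying arrays 1 (4 with the brightest probe per gene). For these orders, too, the shares of all genes were counted in the main setting only. Of 64 differences with a value under that filter, 62 kept their direction: Atr reversed, to -0.16 in TET2KD and -0.13 in JAK2V617F. It also did with the brightest probe, as did Msh3 in JAK2V617F (-0.95). Without a filter the median was 0.44 in JAK2V617F against WT and -0.49 in the double mutant against JAK2V617F, and the median of all genes moved to 0.11, -0.18, -0.19, -0.19 and 0.02 over the 5 comparisons. No paired analysis was possible because each group has 1 array.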
